A study of Homo sapiens with 15 samples.

Results

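The genes described here are those of voltage-gated sodium channels, voltage-gated calcium channels and potassium channels, with the auxiliary subunits that carry the same gene symbols. They were taken by name: every gene whose single symbol in the array's annotation had the form KCN followed by letters and a number (potassium channels), SCN with a number and A or B (sodium channels), or CACN with A, B or G (calcium channels). The rule found 123 genes of the 19775 with 1 symbol, and each was read from its probe set with the highest mean signal over the 15 arrays. One of the 123, CACNA1G-AS1, is an antisense RNA and encodes no channel protein.

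Voltage-gated sodium and calcium channels open when the membrane depolarises and let cations into the cell, whereas most potassium channels let potassium out and return the membrane to rest. Each channel is built from a pore-forming subunit, and auxiliary subunits set how much channel reaches the surface and how fast it opens and closes. Neuroblastoma arises from the sympathetic lineage, whose mature neurons fire action potentials, and neuroblastoma cell lines have long been used to record such currents.

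The cells were IMR32, a human neuroblastoma line, carrying a construct from which doxycycline in the medium induces MSX1, a homeobox transcription factor. Induced cells were sampled at t = 8, t = 24 and t = 48, control cells grown alike but without doxycycline at t = 48, and cells of the same line at t = 0, with 3 arrays in each of the 5 groups. The labels give no unit of time, do not say whether replicates were separate cultures or whether the line is 1 clone, and include no control at t = 8 or t = 24 and no doxycycline-treated cells without the construct. Comparisons with t = 0 therefore include time in culture, doxycycline itself cannot be told apart from MSX1, and the p-values reflect no more than the scatter among these arrays, which could be technical.

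The brighter MSX1 probe set read 115.6, 121.5 and 95.5 at t = 0, 184.1, 158.2 and 140.1 in induced cells at t = 8, 142.2, 171.5 and 182.3 in induced cells at t = 24, 96.9, 67.7 and 84.9 in induced cells at t = 48, and 46.5, 50.2 and 55.5 in control cells at t = 48. On that probe set, induced cells at t = 48 were above control cells on all arrays (log2 fold change 0.65, limma adjusted p = 0.0163) but below t = 0 in mean (log2 fold change -0.40, limma adjusted p = 0.0775), and control cells fell against t = 0 (log2 fold change -1.05, limma adjusted p = 0.005). A second, dimmer MSX1 probe set went the other way at t = 48, with 10.3, 9.2 and 20.2 in induced cells and 22.8, 28.4 and 9.1 in control cells, and was not called (log2 fold change -0.42, limma adjusted p = 0.439 in a fit of all probe sets). Against t = 0 its log2 differences in induced cells were -0.31 at t = 8, -0.41 at t = 24 and -0.99 at t = 48, of which the last was called (limma adjusted p = 0.042). The 2 probe sets thus do not give 1 direction for MSX1 at t = 48. Whether these probes lie in the induced construct is not given in the sources used here. The median signal of an array was 18.1 to 22.6, and 2 arrays (replicate 1 of induced cells at t = 24 and replicate 3 of induced cells at t = 48) had weak hybridisation controls (bioC means of 101 and 116, against 404 to 483 on the others). Replicate 3 at t = 0 had a high 18S ribosomal RNA signal (590, against 73.2 to 183 on the others). Of 13 genes that mark neuroblastoma identity, 11 were on the array and 10 passed the filter. Of these 10, 5 were called higher in induced than in control cells at t = 48, against 5.31% over all tested genes. TH, the rate-limiting enzyme of catecholamine synthesis, averaged 3.28. Summed over 9 fibroblast markers, signal was 2111 to 2161 in induced cells and 1568 to 1686 in control cells at t = 48. LUM, COL3A1 and PDGFRA were called higher and none of the 9 lower. The median log2 fold change over all 9 was -0.04, so the higher sum does not stand for the list as a whole. The part of these markers in the channel results was not tested. Both Schwann markers and all 3 markers of glia that were on the array stayed below the filter. Of those on the array, 2 of 4 epithelial, 1 of 4 endothelial and blood, and 1 of 4 muscle markers were tested. None of these tested markers was called in any comparison, and the untested ones could not be.

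The signals are arbitrary units of brightness per probe set, so levels of different genes cannot be set against each other. A gene was tested when it was at or above the median probe set of an array in 3 or more of the 15. By that filter 60 of the 123 channel genes (48.8%) were tested, against 12868 of all 19775 genes (65.1%). All 3 calcium channel beta subunits passed, as did 16 of 35 voltage-gated potassium channel pore subunits, 9 of 16 potassium channel auxiliary subunits, 8 of 13 inward rectifiers, 7 of 14 two-pore channels and 5 of 10 calcium channel alpha1 pore subunits. Of the calcium- or sodium-activated potassium channels 3 of 7 passed, as did 3 of 9 sodium channel pore subunits, 3 of 8 calcium channel gamma subunits, 2 of 4 alpha2delta subunits and 1 of 3 sodium channel beta subunits.

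At the edge of the filter, KCNE3, KCNMA1, KCNJ11 and KCNK7 reached the median on exactly 3 arrays and were tested, whereas KCNIP1, CACNA2D4, CACNG2, KCNJ9 and KCNG4 reached it on 2 and were not. The 3 arrays of KCNMA1 were those of induced cells at t = 48, so its place among the tested genes depended on that group being high. The sodium channel genes SCN2A and SCN9A never reached the array median, with highest signals of 11.6 and 8.6, and neither did the calcium channel gene CACNA1C, with a highest signal of 19.9. Among potassium channels the same held of KCNA3, KCNA5, KCND2, KCND3, KCNK9 and KCNN3. Low brightness on this array is no proof that a transcript is absent.

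Setting induced beside control cells at t = 48 asks what differed with doxycycline at a matched time. Genes with an adjusted p below 0.05 over all 12868 genes (limma, Benjamini-Hochberg) are termed called. Of the 60 tested channel genes 8 were called higher in induced than in control cells (13.3%) and 4 lower (6.67%), against 5.31% higher and 3.29% lower over all tested genes. The 8 higher genes were pore subunits of sodium, calcium and potassium channels plus 1 potassium channel auxiliary subunit, and the 4 lower ones were 1 sodium channel auxiliary subunit and 3 potassium channel genes. The median log2 fold change was -0.18 over the tested channel genes and -0.01 over all tested genes. The median over channel genes was -0.09 without control replicate 1, control replicate 3 or induced replicate 3. The split between directions depended on scaling: it was 5 higher and 5 lower after quantile normalization, and 6 and 5 when arrays were centred on the tested genes, where the split over all genes moved to 542 higher and 621 lower from 683 and 424. When the 2 arrays of weak hybridisation controls were dropped, 6 channel genes were called in place of 12, and over all tested genes 789 in place of 1107.

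SCN3A, the pore of the sodium channel Nav1.3 that is prominent in developing neurons, read 70.2, 61.1 and 71.4 in induced cells, against 29.2, 27.7 and 27.6 in control cells at t = 48. Every induced array lay above every control array, with more than double the mean signal (ratio 2.40). The log2 fold change was 1.12 (SE 0.13, limma adjusted p = 0.000165). SCN3B, an auxiliary beta subunit of sodium channels, went the other way and read 103.5, 101.6 and 92 in induced cells, against 153.8, 132.4 and 125.1 in control cells. Its groups did not overlap and it fell by 0.45 on the log2 scale (SE 0.11, limma adjusted p = 0.029). The third tested sodium channel pore, SCN8A (Nav1.6, the main channel of the axon initial segment in mature neurons), differed by 0.60 (95% interval 0.04 to 1.15) and was not called (limma adjusted p = 0.182).

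CACNA1B, the pore of the N-type calcium channel Cav2.2 that triggers transmitter release at many synapses, read 203.6, 183.7 and 234.3 in induced cells, against 127.3, 123.6 and 131.5 in control cells. The groups were apart on all arrays, with a log2 fold change of 0.67 (SE 0.14, limma adjusted p = 0.0125). Without induced t = 48 replicate 3 the fold change was 0.58 and the limma adjusted p was 0.0578. CACNA1B was the only 1 of 5 tested calcium channel pores that was called, and none of the alpha2delta, beta or gamma subunits was. CACNG4, a gamma subunit that also acts on AMPA receptors, had 180.2, 150.8 and 68 in induced cells and 208.8, 250.4 and 235.7 in control cells. Induced replicate 3 was the lowest by far. The log2 fold change of -0.88 was not called (limma adjusted p = 0.0886) and was -0.47 without that array. A second, dimmer CACNG4 probe set had the opposite sign (0.62, limma adjusted p = 0.452), with means of 27.5 in induced cells and 18.0 in control cells.

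On the log2 scale, with 5.16 added to each signal, the widest difference among tested channel genes was in KCNMA1, the pore of the large-conductance BK channel that both calcium and voltage open. KCNMA1 read 38.1, 38.3 and 40.6 in induced cells, against 7.7, 7.8 and 9.9 in control cells. The 3 induced arrays agreed closely and stood 4.61 times above the control mean, with a log2 fold change of 1.70 (SE 0.23, limma adjusted p = 0.000627). Since it passed the filter only through these induced arrays, KCNMA1 had to differ and adds no support to the count of higher genes. KCNT2, a sodium-activated potassium channel, read 346.7, 347.4 and 337.5 in induced cells and 191.6, 235.9 and 234.4 in control cells. It rose on all 3 arrays, with a log2 fold change of 0.63 (SE 0.10, limma adjusted p = 0.00198). KCNN1, a small-conductance calcium-activated channel and the only other tested gene of this group, spanned 23.5 to 83.6 in induced cells and 39.8 to 81.8 in control cells and was not called (log2 fold change -0.35, limma adjusted p = 0.619).

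Among two-pore potassium channels, which carry the background leak that holds the resting potential, 1 was called higher and 1 lower. KCNK3 (TASK-1, closed by acid outside the cell) read 105, 110.1 and 91 in induced cells, against 41.3, 36.1 and 43.4 in control cells. No control array came near the induced ones, and the log2 fold change was 1.24 (SE 0.13, limma adjusted p = 7.22e-05), the smallest adjusted p of the 60. KCNK5 (TASK-2, opened by alkaline conditions) read 31.9, 21 and 29.1 in induced cells, against 46, 40.3 and 39.3 in control cells. The groups did not overlap and the gene fell by 0.55 on the log2 scale (SE 0.15, limma adjusted p = 0.045). KCNK1 (TWIK-1), at 75.8, 112 and 123 in induced cells and 135, 176.6 and 159.3 in control cells, also had no overlap but missed the threshold (log2 fold change -0.60, limma adjusted p = 0.0525).

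Of 16 tested voltage-gated potassium channel pores, 2 were called higher and 2 lower. KCNQ5, which contributes to the M-current that restrains repeated firing, read 96, 76.2 and 102.8 in induced cells, against 48.1, 54.7 and 57.7 in control cells (log2 fold change 0.72, SE 0.20, limma adjusted p = 0.045). KCNH8, an ELK-type channel, read 44.5, 44.4 and 44.2 in induced cells, against 22.3, 22.5 and 26.1 in control cells (log2 fold change 0.79, SE 0.22, limma adjusted p = 0.0485). Both genes were separated without overlap. KCNS3 and KCNG3, electrically silent subunits that alter Kv2 channels when they join them, moved together in the other direction. KCNS3 read 71.5, 71.7 and 78.3 in induced cells, against 96.1, 113.3 and 111.7 in control cells, and fell by 0.50 on the log2 scale (SE 0.11, limma adjusted p = 0.0156). KCNG3 read 48.4, 45.3 and 42.2 in induced cells, against 61.2, 54.3 and 65.5 in control cells, and fell by 0.37 on the log2 scale (SE 0.10, limma adjusted p = 0.0436). The lowest control array of KCNG3 still stood above its highest induced array.

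KCNAB2, a cytoplasmic beta subunit of Kv1 channels, was the only 1 of 9 tested potassium channel auxiliary genes that was called. It read 45.9, 29.2 and 25.6 in induced cells, against 9.3, 21.9 and 9.6 in control cells, with a log2 fold change of 1.07 (SE 0.30, limma adjusted p = 0.0442). The nearest arrays, 25.6 and 21.9, barely separated. The calcium-binding Kv4 partner KCNIP3, which also acts as the transcriptional repressor DREAM, read 3.7, 3.4 and 7.4 in induced cells and 29.8, 12.4 and 24.6 in control cells but was not called (log2 fold change -1.42, limma adjusted p = 0.0588). A second, dimmer KCNIP3 probe set averaged 7 in induced cells and 8.83 in control cells, a log2 difference of -0.19 (limma adjusted p = 0.731). None of the 8 tested inward rectifiers was called.

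**Figure D1:**
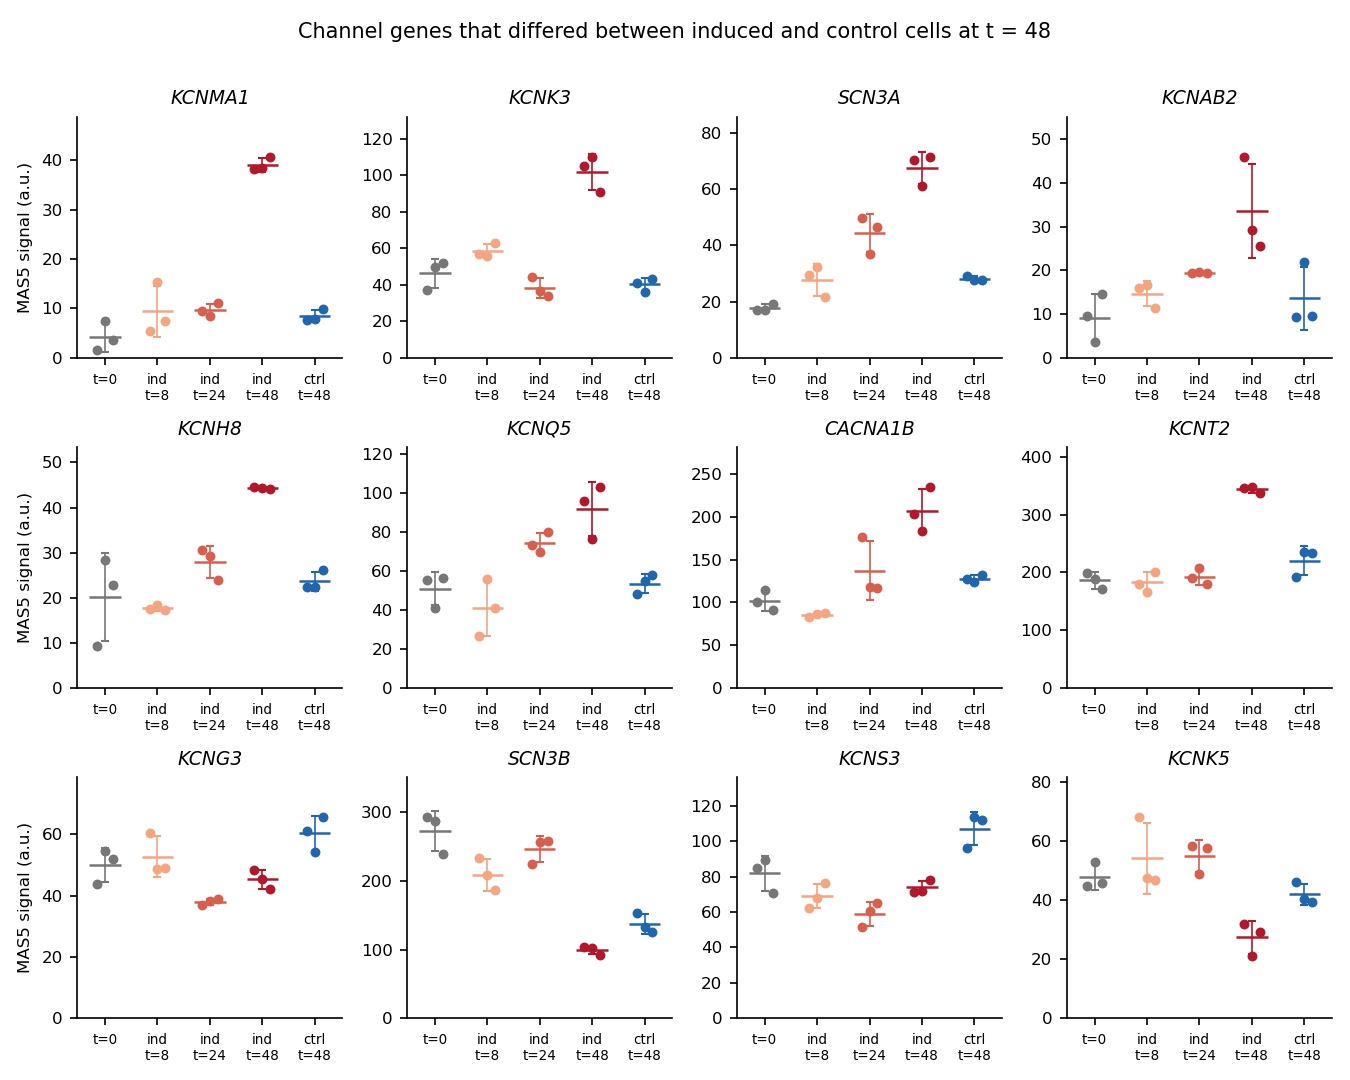
Signal (arbitrary MAS5 units, linear axis from 0) of the 12 channel genes called between induced and control cells at t = 48, in each of the 5 groups. Points are arrays, horizontal lines are means and bars are SD (n = 3), with ind for induced and ctrl for control cells; KCNMA1 stands at 38.1 to 40.6 in induced cells at t = 48, and at most 15.3 in any other array.

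These calls differed in how firmly they held. SCN3A, KCNT2 and KCNK3 stayed called in each alternative setting that could test them and without any 1 of the 6 arrays compared. KCNMA1 did so too, but as a gene that had to differ to be tested it is no sign of stability. CACNA1B stayed called in all 13 settings and was lost only without induced replicate 3. KCNS3 was kept in 12 of 13 settings but lost without induced replicate 1, induced replicate 2, control replicate 2 or control replicate 3 (limma adjusted p up to 0.0659). SCN3B was kept in 10 of 13 settings and, among arrays left out, only without control replicate 3 (limma adjusted p up to 0.114 otherwise). KCNK5 and KCNG3 were kept in 7 and 5 of 13 settings, and only without induced replicate 1 (limma adjusted p up to 0.156 otherwise) and only without control replicate 2 (up to 0.146 otherwise). KCNQ5 was kept in 5 of 13 settings and only without induced replicate 2 (limma adjusted p up to 0.148 otherwise), and KCNAB2 in 3 of 12 and only without control replicate 2 (up to 0.153 otherwise). KCNH8 was kept in 4 of 13 settings and lost whichever array was left out (limma adjusted p up to 0.132).

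Many channel genes with clear signal did not differ detectably. KCNH2, the hERG channel that repolarises the heart and is recorded in neuroblastoma cells, read 248.6, 302.6 and 323 in induced cells and 302.9, 313.5 and 292.5 in control cells, a log2 difference of -0.06 (95% interval -0.33 to 0.20). CACNB3, a beta subunit of calcium channels, differed by 0.11 (-0.19 to 0.40) and KCNJ8, the Kir6.1 pore of ATP-sensitive channels, by -0.09 (-0.36 to 0.19). These intervals leave room for shifts of up to about the size of the smallest calls. KCNC1 (Kv3.1, which supports fast firing) read 304.4, 270.6 and 319.9 in induced cells and 194.3, 249.7 and 251 in control cells, apart on all arrays, but missed the threshold (log2 fold change 0.36, limma adjusted p = 0.0564). The further KCNH2 probe set gave 0.33, the opposite sign, and was not called (limma adjusted p = 0.147).

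KCNQ3, the usual partner of other M-current subunits, gave different answers by probe set. The brightest differed by -0.24 (-0.46 to -0.01) in induced against control cells and was not called (limma adjusted p = 0.198). A second averaged 18.3 ± 4.16 in induced cells and 41.2 ± 4.94 in control cells (SD, n = 3 each), did not overlap and was called lower (log2 fold change -0.99, limma adjusted p = 0.0113). The last of the 3 gave 0.44 and was not called (limma adjusted p = 0.295).

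**Figure D2:**
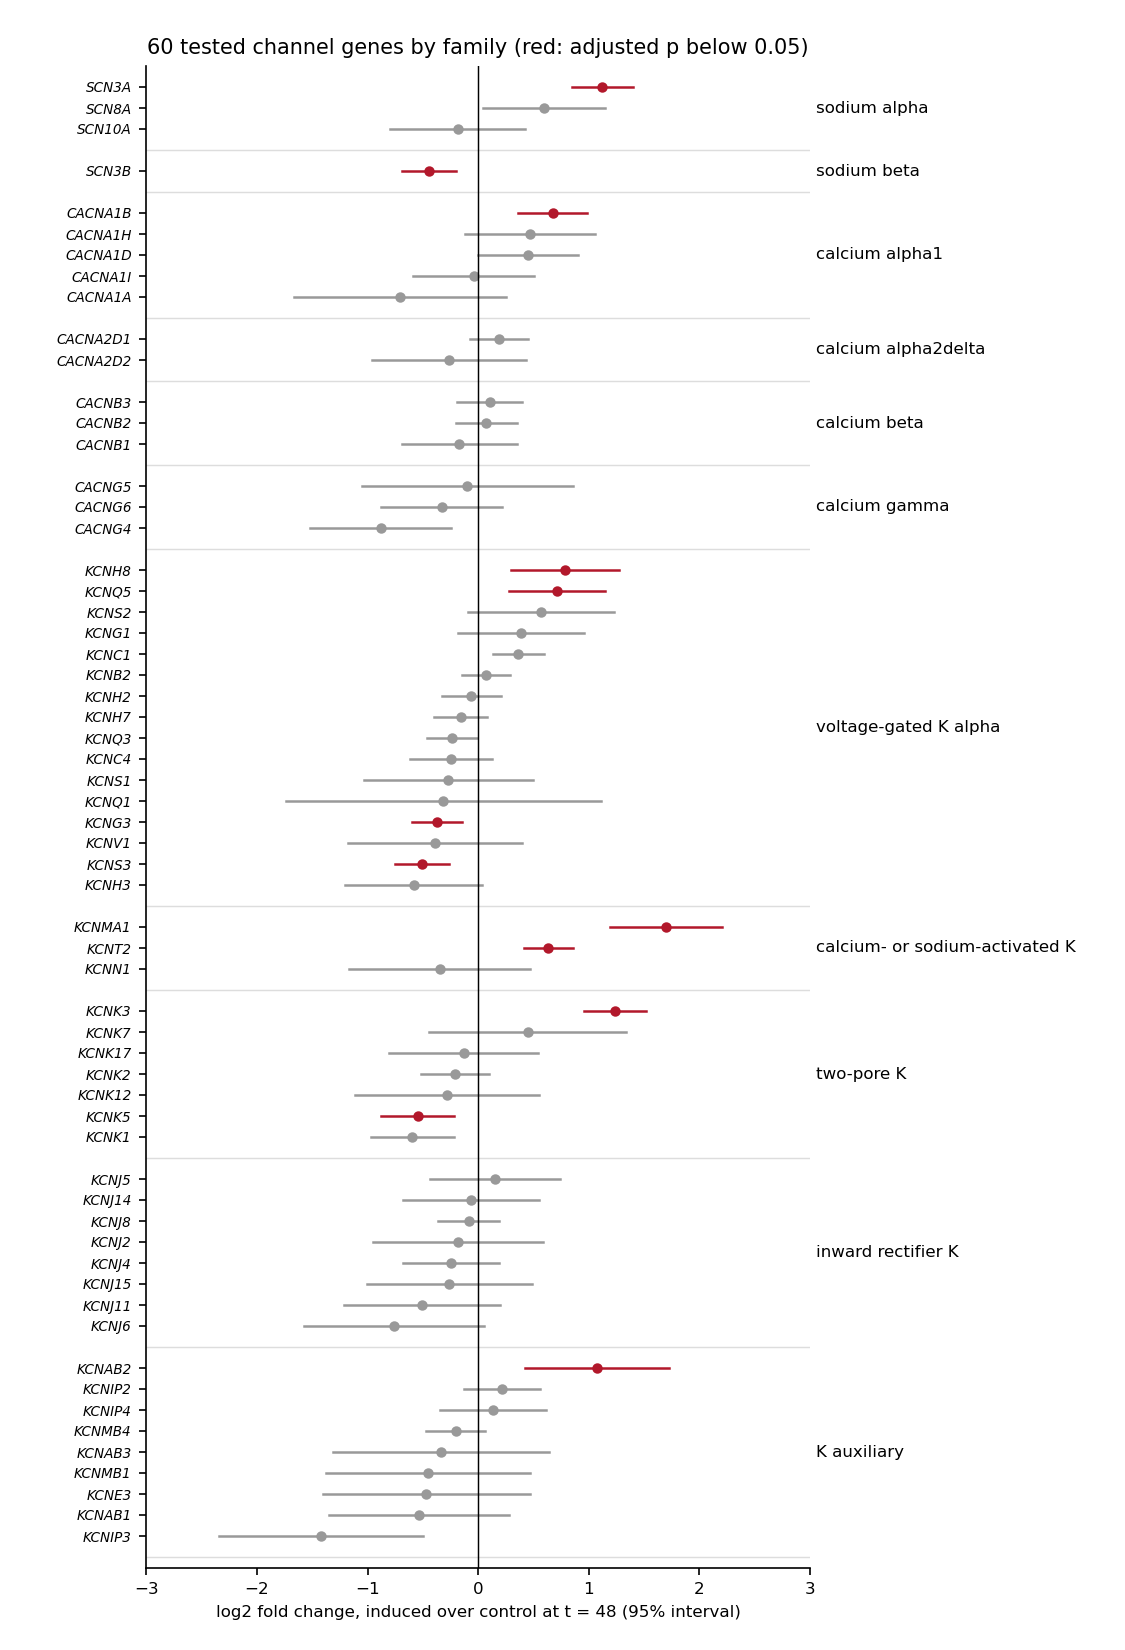
Log2 fold change of induced over control cells at t = 48 with its 95% interval for the 60 tested channel genes, grouped by family. Red marks the 12 genes with adjusted p below 0.05, of which 8 lie right of 0 and 4 left; the grey intervals are widest for dim genes.

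Promoter windows are shown for CACNA1B, KCNK3, KCNMA1 and KCNT2 as examples of genes called higher in induced than in control cells at t = 48, and for KCNK5 as a gene called lower. The windows are RefSeq sequences of GRCh38.p14, 250 bases before to 50 after the annotated start, and 92 of the 123 channel genes had one. The 3 motifs searched, on both strands, were TAATTG, a core that MSX homeodomains bind, and CACGTG and CACGCG, which basic helix-loop-helix factors bind. Overlapping matches of the motifs were found in 0.333% of all windows. TAATTG was in 7.58% of all 27305 windows and in 5 of the 92 channel windows, CACGTG in 7.43% and 5, and CACGCG in 11.4% and 8. Capitals below mark motif matches. The windows lie at chr9:137877532-137877831 on the plus strand (CACNA1B), chr2:26692472-26692771 on the plus strand (KCNK3), chr10:77637759-77638058 on the minus strand (KCNMA1), chr1:196608391-196608690 on the minus strand (KCNT2) and chr6:39229426-39229725 on the minus strand (KCNK5).
CACNA1B: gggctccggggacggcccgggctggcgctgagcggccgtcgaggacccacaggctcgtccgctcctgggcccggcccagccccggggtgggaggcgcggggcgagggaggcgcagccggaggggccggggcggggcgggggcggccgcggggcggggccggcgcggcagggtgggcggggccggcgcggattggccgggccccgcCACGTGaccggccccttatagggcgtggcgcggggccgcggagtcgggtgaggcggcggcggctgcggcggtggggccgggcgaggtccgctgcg
KCNK3: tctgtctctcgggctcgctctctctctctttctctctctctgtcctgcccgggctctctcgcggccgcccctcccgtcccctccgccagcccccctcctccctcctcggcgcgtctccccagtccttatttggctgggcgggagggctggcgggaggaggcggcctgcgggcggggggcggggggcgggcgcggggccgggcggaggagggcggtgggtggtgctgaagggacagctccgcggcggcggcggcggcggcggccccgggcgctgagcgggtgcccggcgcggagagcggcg
KCNMA1: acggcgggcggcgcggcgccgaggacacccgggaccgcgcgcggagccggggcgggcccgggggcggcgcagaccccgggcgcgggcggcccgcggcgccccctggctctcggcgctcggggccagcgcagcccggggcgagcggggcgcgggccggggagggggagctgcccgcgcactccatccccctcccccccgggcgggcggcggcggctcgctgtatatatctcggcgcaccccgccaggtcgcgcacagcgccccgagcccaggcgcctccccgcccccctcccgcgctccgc
KCNT2: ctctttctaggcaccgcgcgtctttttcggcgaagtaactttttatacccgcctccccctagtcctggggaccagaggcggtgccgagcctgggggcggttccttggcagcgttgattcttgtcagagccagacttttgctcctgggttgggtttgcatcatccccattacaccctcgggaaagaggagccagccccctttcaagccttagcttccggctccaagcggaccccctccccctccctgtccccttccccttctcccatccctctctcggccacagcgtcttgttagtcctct
KCNK5: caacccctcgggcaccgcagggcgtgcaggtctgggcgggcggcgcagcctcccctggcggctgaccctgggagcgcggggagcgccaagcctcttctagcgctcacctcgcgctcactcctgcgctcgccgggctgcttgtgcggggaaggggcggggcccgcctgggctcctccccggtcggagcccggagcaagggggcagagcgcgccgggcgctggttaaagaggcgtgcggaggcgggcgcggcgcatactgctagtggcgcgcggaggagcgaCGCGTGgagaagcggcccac

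CACNA1B held 1 CACGTG, KCNK5 held 1 CACGCG (read as CGCGTG on the strand shown), and the windows of KCNK3, KCNMA1 and KCNT2 held none of the 3. Of the 19 channel genes called in any comparison 15 had a window, of which 0 held TAATTG, 1 CACGTG and 3 CACGCG. The G and C content of these 15 windows was 42.0% to 85.7%, and KCNMA1 was at the top of that range. Over all channel windows the median was 65.7%, against 58.3% over all windows. A match is only a run of letters, and its absence from a window says nothing about binding elsewhere.

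Across time, 19 of the 60 tested channel genes were called in at least 1 of the 7 comparisons and 41 in none. The share called in at least 1 comparison over all tested genes was not computed. There were 49 calls in all, and in each the 3 arrays of one group did not overlap the 3 of the other. The threshold itself favours such gaps, so the lack of overlap adds no support to the calls. At t = 8 against t = 0, 0 channel genes were called higher and 1 lower, against 1.10% and 0.995% over all tested genes. At an unadjusted p below 0.05 there were 8. The share over all tested genes at that level was not computed, so this count says nothing particular about channel genes. The 1 called gene was CACNA2D1, the alpha2delta subunit that carries calcium channels to the surface and binds gabapentin. It read 130.7, 182.1 and 171 in induced cells at t = 8, against 310.7, 244.4 and 282.7 at t = 0, and fell by 0.78 on the log2 scale (SE 0.12, limma adjusted p = 0.0038). All t = 8 arrays lay below the whole of the other 4 groups.

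CACNA2D1 then stood at 313.6, 301 and 315.8 in induced cells at t = 24, close to its t = 0 range, and at 387.9, 396.7 and 436.4 in induced cells at t = 48. Against t = 8 it was called higher at t = 24 (log2 fold change 0.94, limma adjusted p = 0.00108), and against t = 0 it was called higher at t = 48 (0.54, limma adjusted p = 0.00936). Control cells at t = 48 had 327.8, 364.7 and 376.6, and the difference between induced and control cells, 0.19 (-0.07 to 0.45), was not called (limma adjusted p = 0.375). A second CACNA2D1 probe set gave -0.48 at t = 8, -0.34 at t = 24 and -0.21 at t = 48 against t = 0. At t = 24 against t = 8 it gave 0.14 (limma adjusted p = 0.547), and in induced against control cells -0.26. None of these was called. The return to the t = 0 range at t = 24 and the later rise were thus seen on 1 probe set only.

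At t = 24 against t = 0, 1 channel gene was called higher and 4 lower, against 5.96% higher and 4.87% lower over all tested genes. With arrays centred on the tested genes the split was 1 and 5 among channel genes and 603 and 1031 over all genes, in place of 767 and 627. SCN3A had 49.7, 36.9 and 46.6 in induced cells at t = 24, against 17.2, 17.1 and 19.2 at t = 0, and rose by a log2 fold change of 1.10 (SE 0.13, limma adjusted p = 0.000145). All arrays at t = 24 were above any at t = 0. KCNJ4 (Kir2.3, an inward rectifier that steadies the resting potential) read 15.3, 24.4 and 22 in induced cells at t = 24, against 40.9, 39.5 and 39.2 at t = 0, and fell by 0.82 on the log2 scale (limma adjusted p = 0.0202). KCNH7 (an erg-type channel related to KCNH2) read 25.9, 25.8 and 27.5 in induced cells at t = 24, against 38, 46.7 and 41.1 at t = 0, and fell by 0.57 on the log2 scale (limma adjusted p = 0.0062). KCNS3 and KCNG3 fell by 0.44 and by 0.35 on the log2 scale (limma adjusted p = 0.0251 and 0.0485). Neither KCNJ4 nor KCNH7 was called against control cells at t = 48 (-0.25 and -0.16), where KCNJ4 spanned 33.4 to 38.5 in induced cells and 29 to 57 in control cells. SCN3A and KCNH7 stayed called without any 1 array. The KCNJ4 call was lost without induced t = 24 replicate 1 or any t = 0 array (limma adjusted p up to 0.0845). The KCNS3 call was lost without replicate 1 or 2 of either group (up to 0.0989), and the KCNG3 call was kept only without t = 0 replicate 1 (up to 0.159 otherwise). In all, 3 of the 60 genes were called when both arrays of weak hybridisation controls were dropped. Over all tested genes the calls then fell too, to 952 from 1394.

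At t = 48 against t = 0, 10 channel genes were called higher and 3 lower (16.7% and 5%), against 9.93% and 8.20% over all tested genes. KCNMA1, tested only through the induced arrays at t = 48, adds no support to the 10. With arrays centred on the tested genes the split was 9 and 3 among channel genes and 1028 and 1620 over all genes, in place of 1278 and 1055. All 8 genes called higher against control cells were among the 10. Their log2 fold changes against t = 0 were 2.28 for KCNMA1, 1.66 for SCN3A, 1.47 for KCNAB2, 1.06 for KCNK3, 1.05 for KCNH8, 0.99 for CACNA1B, 0.87 for KCNT2 and 0.79 for KCNQ5. CACNA2D1 and KCNB2 (Kv2.2, a delayed rectifier, 0.31, limma adjusted p = 0.0489) completed the list. The KCNB2 call was lost whichever array was left out (limma adjusted p up to 0.153), and that of KCNQ5 without t = 0 replicate 2 or induced t = 48 replicate 3 (up to 0.0706). The control cells at t = 48 and the induced cells share the t = 0 arrays, so the values of the 2 groups against t = 0 are not independent of each other.

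SCN3B fell by 1.41 on the log2 scale in induced cells at t = 48 against t = 0 (limma adjusted p = 5.35e-06), with 103.5, 101.6 and 92 at t = 48 and 292.1, 286.8 and 239.5 at t = 0. KCNK5 fell by 0.72 on the log2 scale (limma adjusted p = 0.00663). KCNK2 (TREK-1, a two-pore channel opened by stretch) fell by 0.44 on the log2 scale (limma adjusted p = 0.0496), with 50.2, 47.5 and 58.1 at t = 48 against 71.7, 71.6 and 72.7 at t = 0, and this call was lost whichever array was left out (up to 0.141).

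Control cells at t = 48 against t = 0 show what changed without doxycycline. Of the 60 channel genes 0 were called higher and 1 lower, against 0.482% and 0.365% over all tested genes. At an unadjusted p below 0.05 there were 12. The share over all tested genes at that level was not computed, so this count says nothing particular about channel genes. The 1 called gene was SCN3B, which had 153.8, 132.4 and 125.1 in control cells at t = 48, against 292.1, 286.8 and 239.5 at t = 0, and fell by 0.97 on the log2 scale (SE 0.11, limma adjusted p = 0.00225). Most of the SCN3B decline was thus also present without induction, and the further difference of 0.45 between induced and control cells is the part tested at matched time. SCN3A differed by 0.54 in control cells (0.26 to 0.82), not called (limma adjusted p = 0.09), beside 1.66 in induced cells. KCNS3 and KCNG3, lower in induced than in control cells, had log2 differences from t = 0 of -0.13 and -0.13 in induced cells and of 0.37 and 0.25 in control cells, none called.

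**Figure D3:**
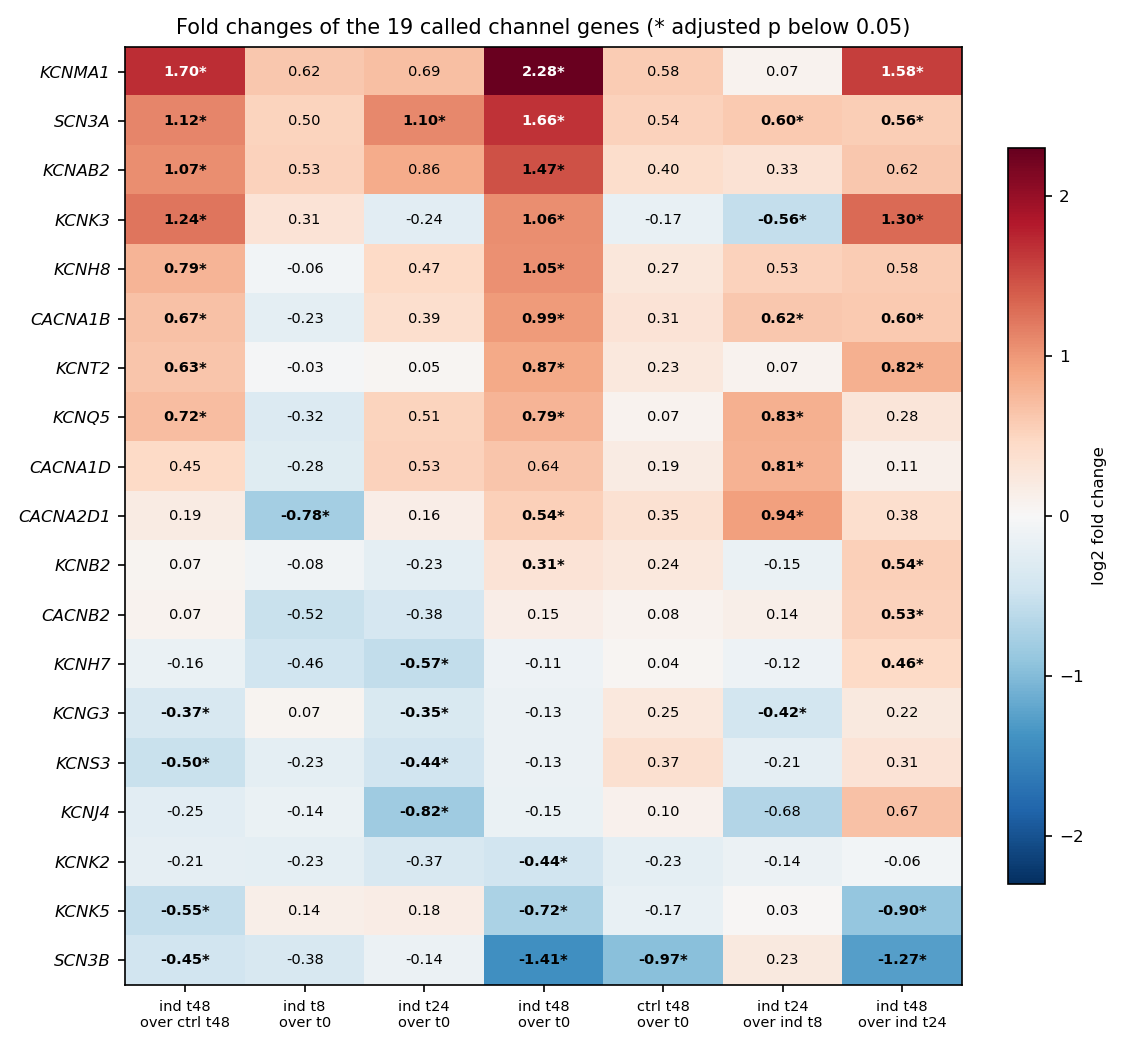
Log2 fold changes of the 19 called channel genes in the 7 comparisons, the first-named group over the second (ind, induced; ctrl, control), with asterisks for adjusted p below 0.05. Rows run from KCNMA1 (2.28 in induced cells at t = 48 over t = 0) to SCN3B (-1.41), and SCN3B alone carries an asterisk in the control column.

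The steps between induced time points place these changes. From t = 8 to t = 24, 5 channel genes were called higher and 2 lower, against 3.46% and 2.84% over all tested genes. The split over all genes was 340 and 686 with arrays centred on the tested genes and 163 and 68 with arrays centred on all probe sets, in place of 445 and 365, and among channel genes it was 4 and 3, and 4 and 0. The higher genes were CACNA2D1, KCNQ5 (0.83), CACNA1D (0.81), CACNA1B (0.62) and SCN3A (0.60), and thus included 3 calcium channel subunits. CACNA1D, the Cav1.3 pore that opens at low voltage and paces firing, read 27.5, 21.4 and 23.1 in induced cells at t = 24, against 15.3, 8.2 and 11.6 at t = 8. A second CACNA1D probe set gave -0.14 in the same comparison and was not called. KCNK3 and KCNG3 fell by 0.56 and by 0.42 on the log2 scale (limma adjusted p = 0.0252 and 0.035). The 2 further KCNK3 probe sets gave -0.02 and 0.16 in this comparison, neither called, so that fall was seen on 1 probe set only. Leaving out 1 array gave 1 to 4 calls in place of 7, and over all tested genes 398 to 568 in place of 810. CACNA2D1, on its brightest probe set, was the only 1 of the 7 genes kept without each of the 6 arrays. Its second probe set gave 0.14 in this step and was not called. SCN3A was lost without replicates 1 or 3 of t = 24 or replicate 3 of t = 8 (limma adjusted p up to 0.0759), and CACNA1B without t = 24 replicate 1 or any t = 8 array (up to 0.0814). Calls of CACNA1D, KCNK3 and KCNQ5 were each kept only without 1 array, t = 8 replicate 1, t = 24 replicate 1 and t = 8 replicate 2 in that order, and that of KCNG3 was lost whichever array was left out (up to 0.138 over these 4 genes).

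From t = 24 to t = 48, 8 channel genes were called higher and 2 lower, against 2.42% and 1.62% over all tested genes. KCNMA1 (log2 fold change 1.58), KCNK3 (1.30) and KCNT2 (0.82) had shown no call above t = 0 at t = 8 or t = 24, and KCNK3 had been called lower at t = 24 than at t = 8 on its brightest probe set alone. Their levels at t = 24, 9.4, 8.4 and 11.1 for KCNMA1, 44.3, 36.8 and 33.9 for KCNK3 and 190.7, 207.5 and 179.4 for KCNT2, overlapped those of control cells at t = 48. SCN3A followed another course, with 17.1 to 19.2 at t = 0, 21.5 to 32.3 at t = 8, 36.9 to 49.7 at t = 24 and 61.1 to 71.4 at t = 48, without overlap between consecutive groups. SCN3B fell by 1.27 on the log2 scale (limma adjusted p = 3.22e-05) and KCNK5 by 0.90 (limma adjusted p = 0.00408). Neither gene was called against t = 0 at t = 8 or t = 24. SCN3B did read 186.3 to 232.8 in induced cells at t = 8, below its 239.5 to 292.1 at t = 0, and 223.9 to 258.5 at t = 24. With no control at t = 24, the fall of SCN3B in control cells cannot be placed in a step. KCNB2 (0.54), CACNB2 (0.53, a beta subunit that targets calcium channels to the membrane) and KCNH7 (0.46) were called higher than at t = 24, and at t = 48 they had log2 differences from control cells of 0.07, 0.07 and -0.16, none called. KCNK3, KCNT2, KCNB2, SCN3B and KCNK5 stayed called in this step without any 1 array. KCNMA1 did so too, but it was tested only through the induced arrays at t = 48. It is thus no sign of stability and adds no support to the count of 8. CACNA1B and SCN3A were each lost without replicate 1 or 3 of t = 48 or replicate 2 or 3 of t = 24 (limma adjusted p up to 0.158 and 0.118). CACNB2 was kept only without t = 24 replicate 2 (up to 0.126 otherwise), and KCNH7 was lost whichever array was left out (up to 0.146).

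**Figure D4:**
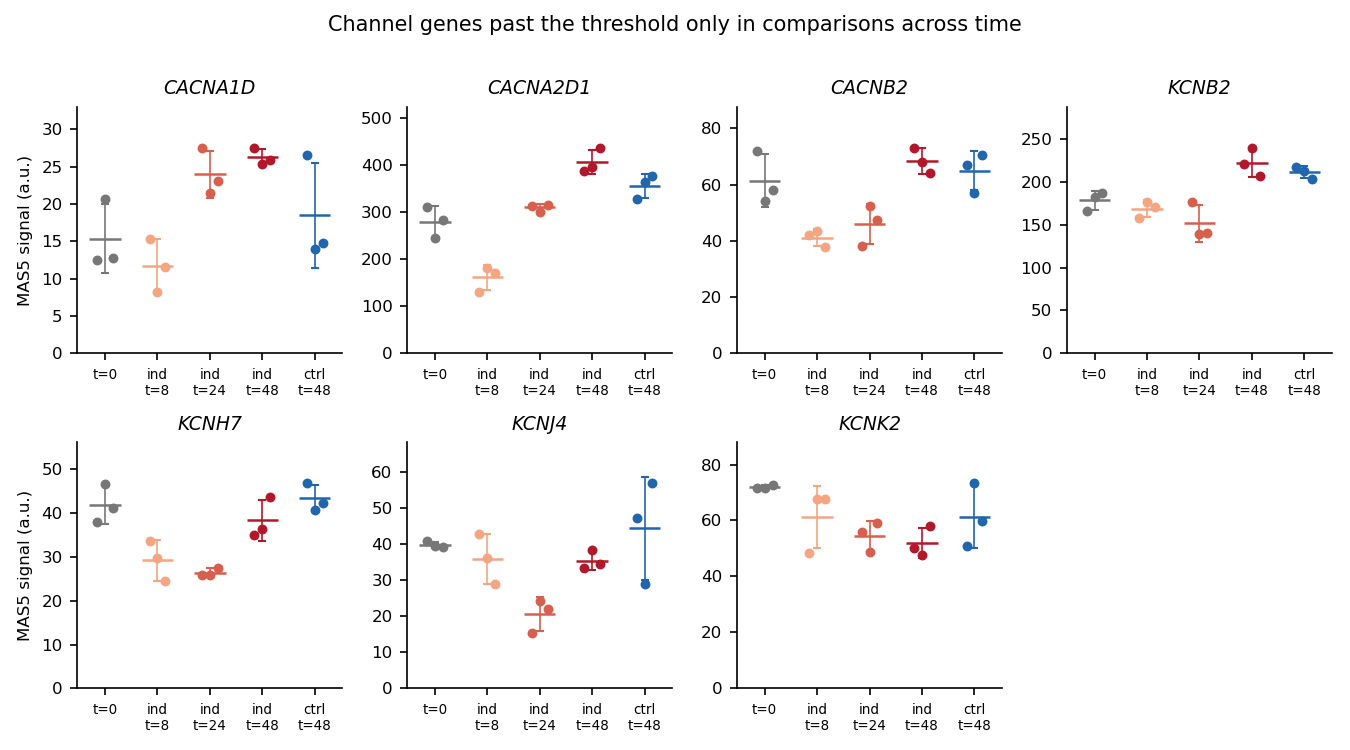
Signal (arbitrary MAS5 units, linear axis from 0) of the 7 channel genes called only in comparisons across time, by group. Points are arrays, lines are means and bars are SD (n = 3); CACNA2D1 is lowest at t = 8 (130.7 to 182.1) and KCNJ4 at t = 24 (15.3 to 24.4).

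Further probe sets of the same gene read another stretch of its transcripts. For 9 of the 19 called genes at least 1 further probe set passed the filter, which gave 31 pairs of a call and a further probe set. The sign was the same in 28 of the 31, and in 7 pairs the further probe set was called itself. The pairs reuse the same arrays and probe sets across comparisons, so they are not independent. Some of the 28 lay near 0 on the further probe set, such as KCNK3 at t = 24 against t = 8 (-0.02). SCN3B was called on both of its probe sets in the 3 comparisons across time (-1.41 and -1.30 at t = 48 against t = 0), but between induced and control cells the second gave -0.27 and was not called (limma adjusted p = 0.185). KCNT2 was called on both between induced and control cells (0.63 and 1.02, limma adjusted p = 0.00198 and 0.0324). For KCNK3 the 2 further probe sets gave 0.91 and 0.52 in that comparison, neither called (limma adjusted p = 0.086 and 0.104). The further CACNA1B probe set was dim and gave 0.01, against 0.67 for the brighter one. KCNMA1, SCN3A, KCNAB2, KCNQ5, KCNH8, KCNG3, KCNS3 and KCNK5 had no further probe set that passed, so their results rest on 1 probe set each. Over the 22 genes with a further probe set that passed, 4 differences in 3 genes were called on a further probe set while the brightest was not. They were KCNQ3 in induced against control cells, given above, and in induced cells at t = 48 against t = 0 (-0.78, limma adjusted p = 0.0221, against 0.18 on the brightest), KCNIP3 at t = 48 against t = 0 (-0.99, limma adjusted p = 0.029, against -1.18), and CACNB2 at t = 48 against t = 0 (1.59, limma adjusted p = 0.0213, against 0.15).

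**Figure D5:**
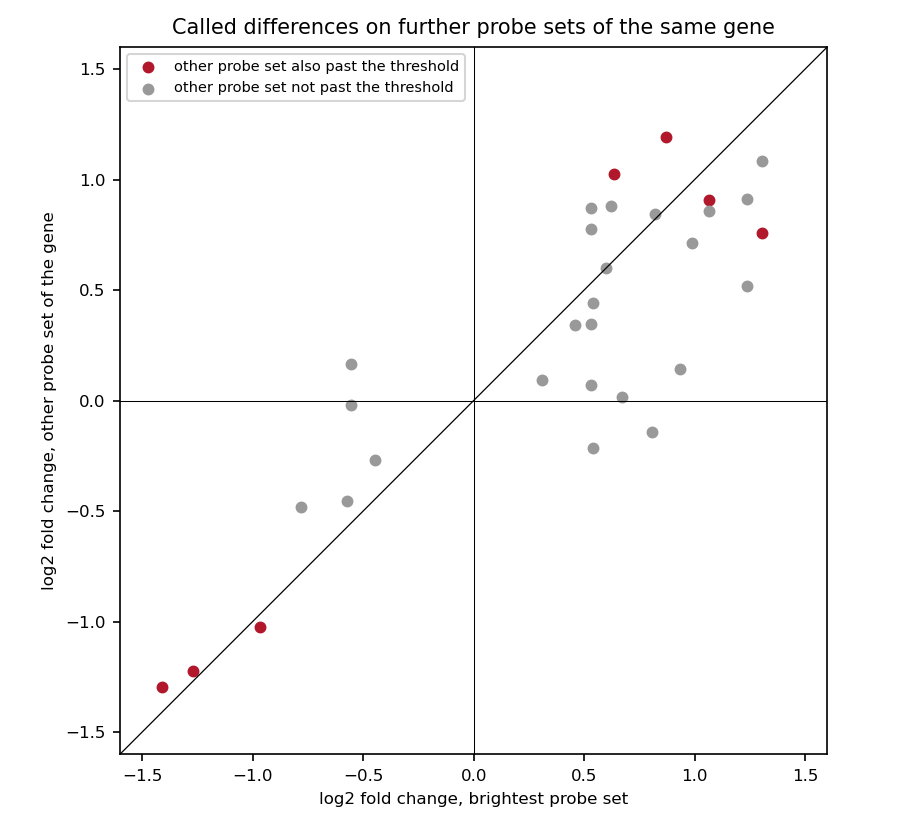
Log2 fold change of each called difference on the brightest probe set (x) and on a further probe set of the same gene that passed the filter (y), for 31 pairs in 9 genes. The line marks equal values, red points are further probe sets with adjusted p below 0.05 (7 of 31), and 28 of 31 points have the same sign on both axes.

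Related channels that the naming rule leaves out, such as the HCN pacemaker channels and the two-pore channels of endosomes, were listed separately. Of 18 such genes 14 were on the array and 9 were tested, and 0 were called by limma in any of the 7 comparisons. Of 43 genes whose products bind, anchor, modify or repress channels, 41 were on the array and 33 were tested. In induced against control cells at t = 48, 4 of the 33 were called higher and 4 lower, with a median log2 fold change of -0.06. Over all tested genes 5.31% were called higher and 3.29% lower. ANK3, the ankyrin-G scaffold that gathers sodium channels and KCNQ channels at the axon initial segment, averaged 940.1 ± 25.5 in induced cells and 372.7 ± 39.8 in control cells (SD, n = 3 each, log2 fold change 1.33, limma adjusted p = 1.38e-06). UNC79 (0.65) and UNC80 (0.60), partners of the sodium leak channel, and AKAP9 (0.59), a kinase anchor of KCNQ1 channels, were the other 3 higher genes. The 4 lower ones fell by 0.57 (FGF13), by 0.53 (FGF12), by 0.52 (CNTNAP2) and by 0.50 (STAC) on the log2 scale. FGF12 and FGF13 bind the tails of sodium channels, CNTNAP2 clusters Kv1 channels beside the node and STAC binds calcium channels.

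REST, the repressor that silences neuronal genes, channel genes among them, in other cell types, averaged 297.6 ± 48.0 in induced cells at t = 24, against 161.2 ± 39.7 at t = 0 (SD, n = 3 each, log2 fold change 0.88, limma adjusted p = 0.0125). At t = 48 it averaged 172.1 ± 19.9 in induced cells and 179.4 ± 17.0 in control cells and was not called (-0.06, limma adjusted p = 0.884). Over the 33 partner genes 4 were called higher and 5 lower at t = 24 against t = 0, where all tested genes gave 5.96% and 4.87%. At t = 48 against t = 0, 7 were called higher and 3 lower, where all tested genes gave 9.93% and 8.20%. At t = 8 against t = 0 the calls were 1 higher and 1 lower (1.10% and 0.995% over all tested genes). Control cells against t = 0 gave 0 (0.482% and 0.365%). Between t = 24 and t = 8 the calls were 3 higher and 2 lower (3.46% and 2.84%). Between t = 48 and t = 24 they were 3 higher and 1 lower (2.42% and 1.62%).

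The 63 channel genes below the filter were fitted once without it, as a description. Their highest mean signal was 14.1 (KCNJ9), and 49 of the 63 reached the array's median on 0 arrays. In that fit 2 were called, each in 1 comparison, at t = 48 or at t = 24 against t = 0. Of all 19775 genes the same fit called 1610 and 922 in these comparisons. CACNG8, a gamma subunit known mainly as a partner of AMPA receptors, averaged 19.4 ± 7.31 in induced cells at t = 48 and 5.73 ± 1.08 at t = 0 (SD, n = 3 each, log2 fold change 1.14, limma adjusted p = 0.0276). KCNJ13 (Kir7.1, an inward rectifier of epithelia) averaged 0.967 ± 0.416 in induced cells at t = 24 and 6.63 ± 3.97 at t = 0 (SD, n = 3 each, log2 fold change -0.88, limma adjusted p = 0.0366). Both genes reached the array median on at most 2 arrays, and at such levels the 5.16 added to every signal before the logarithm shrinks fold changes.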

How the data were processed

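Total RNA was hybridised to Affymetrix arrays of 54675 probe sets. The deposited values are signal intensities on a linear scale, made by the authors, whose processing notes name MAS5 and GCOS, and the trimmed mean (2% off each end) of every array was close to 100.01. No further background or scaling step was added. Probe sets were named from the platform annotation: 41091 had 1 symbol, 1801 several, 11721 were not listed, and 62 were array controls. For each gene the probe set with the highest mean signal was kept. Log2 values were computed here from the deposited intensities plus 5.16 (the arrays' mean lower quartile), so fold changes of dim genes are understated.

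Genes at or above the array median on at least 3 of 15 arrays were fitted with limma 3.58.1 (lmFit, eBayes, 5 group means, R 4.3.3), two-sided, with Benjamini-Hochberg adjustment over 12868 genes and a threshold of 0.05. In data simulated for induced against control cells at t = 48, 200 of 12868 genes were changed, with independent normal scatter. There 84% of 2-fold and 33% of 1.41-fold changes were called, with 4.1% false among the calls. The simulation held no shift shared by the genes of an array, so these rates need not hold for the real arrays. Genes named with values were those called in a comparison (up to 8 in each direction), the 10 with the highest mean signal, and a list of well-known channels. KCNK1, KCNIP3, KCNMB4, CACNG8, KCNJ13, further probe sets and genes at the filter's edge were named after their values were seen. The members and lists were chosen with earlier results of these data known. The alternatives were the added constant, scaling, filter, choice of probe set, variance model, arrays in the fit, replicate number and arrays left out. The number of arrays limits the precision.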

Additional observations from a re-analysis of the deposited data

How the results depend on the processing

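Induced against control cells at t = 48 gave 12, and 7 with arrays centred on all probe sets, 6 with no filter, 7 with every probe set tested, 6 without the arrays with weak hybridisation controls, and 6 to 7 with 1 array left out. For t = 8 against t = 0 the count of 1 became 0 with arrays centred on all probe sets or with only the compared arrays, 3 with quantile normalization, 2 with arrays centred on the tested genes (an alternative chosen after seeing the data), 2 with a filter on the mean signal, 2 without the weak arrays, and 1 to 3 with 1 array left out. For t = 24 against t = 0 the count of 5 became 3 centred on all probe sets, 3 with only the compared arrays, 3 without the weak arrays, and 3 to 4 with 1 array left out. Control cells against t = 0 gave 0 in place of 1 with only the compared arrays. For t = 24 against t = 8 the count of 7 became 4 centred on all probe sets, 2 with no filter, 1 with only the compared arrays, 3 without the weak arrays, and 1 to 4 with 1 array left out. For t = 48 against t = 24 the count of 10 became 6 with no filter, 5 with only the compared arrays, and as few as 6 with 1 array left out. The count of 13 at t = 48 against t = 0 stayed within 1.5 times under each alternative run. Of the 49 calls, 20, in 10 genes, were kept in every alternative that could test them and with every array left out. These include the calls of KCNMA1, which had to be high in induced cells at t = 48 to be tested. Some differences between induced and control cells at t = 48 that were not called turned sign when 1 array was left out, with log2 fold changes of -0.5328 to 0.02919 for CACNA2D2, -0.2654 to 0.01427 for CACNB1, -0.01085 to 0.1307 for CACNB2, -0.1403 to 0.04514 for KCNH2 and -0.771 to 0.04443 for KCNN1, whose 0.04443 was also the value without both weak arrays (the cause was not tested). Over all genes, the 1107, 270, 1394, 2333, 109, 810 and 520 calls of the 7 comparisons (induced against control cells at t = 48, then t = 8, t = 24 and t = 48 against t = 0, control cells against t = 0, t = 24 against t = 8, and t = 48 against t = 24) became 575, 130, 648, 1197, 31, 231 and 296 centred on all probe sets, and 619, 52, 474, 1124, 0, 90 and 263 with only the compared arrays. In the same order they became 789, 275, 952, 1851, 96, 490 and 339 without the 2 weak arrays. With no filter, over 19775 genes, they were 692, 181, 922, 1610, 56, 405 and 368. With the replicate block in the fit, the counts of called channel genes in the same order were 8, 1, 5, 13, 1, 5 and 7. The numbers did not pair the samples: 3 of 30 same-numbered pairs had a correlation above 0.1 (range -0.28 to 0.21), and the same number was the best match in 11 of 30.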

Other observations

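KCNG1, SCN8A and CACNA1D each had groups that did not overlap in a comparison and yet missed the threshold. KCNG1, a silent subunit that modifies Kv2 channels, read 237.3, 426.4 and 430.5 in induced cells at t = 48, against 205, 232.4 and 188.8 at t = 0 (log2 fold change 0.74, limma adjusted p = 0.0679). SCN8A stood at 46.7 to 69.6 in induced cells and 21.7 to 44.2 in control cells at t = 48. CACNA1D read 27.5, 25.4 and 25.9 in induced cells at t = 48, against 12.5, 20.7 and 12.8 at t = 0 (log2 fold change 0.64, limma adjusted p = 0.0522). KCNMB4, the beta4 subunit that pairs with the BK channel pore encoded by KCNMA1, was not called and its groups overlapped, with 68.9, 74 and 56.4 in induced cells and 63.9, 84.8 and 83.2 in control cells at t = 48 (log2 fold change -0.20, 95% interval -0.47 to 0.06).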
